A study of Solanum lycopersicum with 12 samples.

Results

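HY5, CO1 and CIP1 are 3 tomato genes that were lower with cadmium (Cd) in both root and leaf. They were found by symbol in the array's probe-to-gene table, and they were picked for that direction. HY5 and CO1 had 1 probe set each and CIP1 had 2, which gave 4 probe sets among the 10038 that do not serve as array controls, or 3 genes among the 803 named genes there. The direction of the Cd difference in each organ is therefore how the genes were chosen and not a finding, and the Cd differences of these 3 genes are given without a test. The tests below concern the level in root against leaf, which the choice did not use, the difference between the organs' responses, and other genes of light signalling. The choice used the direction of both responses but not the difference in their size. The lists of other genes were chosen with earlier results of these data known.

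Transcripts of Solanum lycopersicum were measured on 12 single-channel Affymetrix arrays with biotin-labelled cRNA from total RNA, 1 sample per array. The titles give 4 groups of 3: roots without Cd (root control), roots with Cd, leaves without Cd (leaf control) and leaves with Cd. For the 3 arrays whose titles say leaf and Cd, the source field says that no Cd was given, so every leaf comparison rests on the titles. No genotype, cultivar, plant age, Cd dose or treatment time is stated for any group, and nothing says whether the arrays of a group came from separate plants, so p-values reflect nothing but array-to-array spread, part or all of which could be technical.

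HY5 is a bZIP transcription factor. In Arabidopsis it acts downstream of the phytochromes and cryptochromes, promotes seedling greening, and is marked for degradation in darkness by the ubiquitin ligase COP1 together with the DET1, DDB1 and CUL4 machinery. In tomato, silencing of HY5 lowers carotenoid content. CO1 belongs to the CONSTANS family of B-box zinc finger regulators, whose founding Arabidopsis member controls flowering by day length. The symbol CIP1 is in use for a CONSTANS-interacting protein in tomato and for a COP1-interactive protein in Arabidopsis. The tables used here give the symbol only, so no function is attributed to it. In the current RefSeq order of protein-coding genes (assembly SLM_r2.1) CO1 stands directly beside CO3, a relative with no probe set under that name. In that order CIP1 stands beside the fructokinase gene FRK2.

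Values are log2 expression as deposited, so a difference of 1 is a 2-fold change. Array medians lay between 7.46 and 7.50 in root and between 6.85 and 6.89 in leaf, and no label explains this gap. Root and leaf are therefore compared after taking off each array's median, with the deposited values beside them. Background on an array was the highest of 23 negative control probe sets, between 3.13 and 3.57 in root and between 2.69 and 3.01 in leaf. Leaf Cd 3 stood apart, with an array weight of 0.155 against 0.668 to 1.60 for the other leaf arrays. Root control 1 (8.12) and root Cd 1 (5.60) carried the highest weights. As a check of the labelled organs, 5 of the 7 root marker genes measured were at background on all 3 leaf control arrays, although the ferric reductase FRO1 was higher in leaf (7.69 ± 0.81 in leaf controls, 5.24 ± 1.91 in root controls). The 8 green tissue genes (CAB4, CAB5, CAB6A, PSBO, PSBP, PSBR, PsbQ and PETE) were above background on all 12 arrays, the root arrays included.

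**Figure D1:**
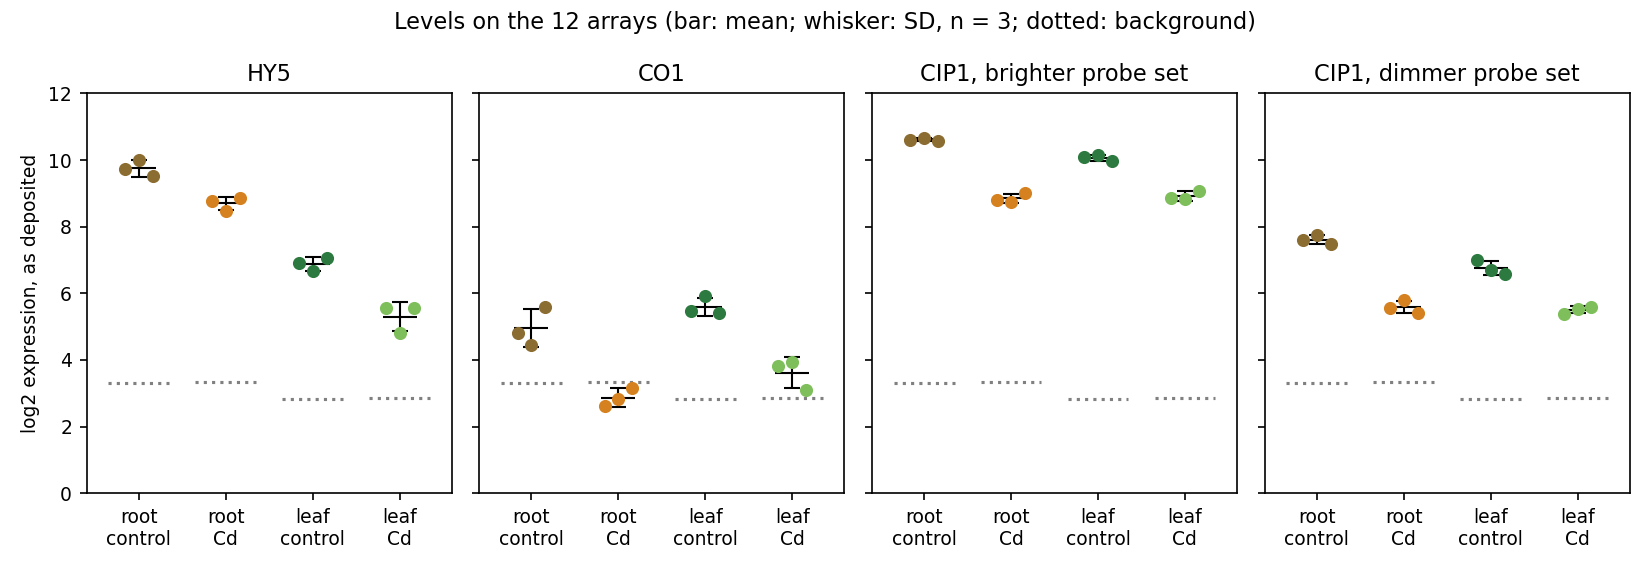
Log2 expression as deposited (vertical axis) for HY5, CO1 and the brighter and dimmer probe sets of CIP1 on the 12 arrays, by group. Points are arrays, bars are means with SD (n = 3), and dotted lines are the mean background. In every panel the 3 Cd arrays lie below the 3 controls of the same organ, and the CO1 values of the root Cd arrays (2.61 to 3.16) lie at the background line.

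HY5 (probe set Les.3543.1.S1_at) was well expressed in root. Its log2 level was 9.72, 10.01 and 9.52 on root control arrays 1 to 3, and 8.76, 8.48 and 8.87 on root Cd arrays 1 to 3. The groups did not overlap, and the level stood 1.05 lower with Cd, a 2.07-fold difference of the group means (9.75 ± 0.25 and 8.70 ± 0.20, SD, n = 3). In bulk tissue, fewer cells of a type and less RNA per cell cannot be told apart. In leaf the level was 6.92, 6.66 and 7.07 on the controls, and 5.54, 4.79 and 5.55 on the arrays titled Cd. The leaf groups were also apart, and the level was 1.59 lower with Cd, or 3.01-fold (6.88 ± 0.21 and 5.30 ± 0.43). The lowest of the 12 values was on leaf Cd 2. On the arrays, HY5 ranked at the 81.1 to 86.3 percentile of all probe sets in root controls and at the 25.4 to 33.0 percentile in leaf Cd.

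CO1 (probe set LesAffx.52572.1.S1_at) was the weakest of the 3 in signal. Its log2 level in root was 4.82, 4.46 and 5.59 on control arrays 1 to 3 and 2.61, 2.84 and 3.16 on Cd arrays 1 to 3. Every Cd array was below every control, by 2.09 between the means (4.96 ± 0.58 and 2.87 ± 0.28), a 4.26-fold difference. Only root Cd 3 exceeded its array's background, and there by a narrow margin (3.16 against 3.13). With the values below background raised to it, a setting added after the values were seen, the root difference was -1.61, or 3.06-fold. In leaf, where all arrays were above background, CO1 stood at 5.46, 5.91 and 5.41 on the controls and at 3.81, 3.95 and 3.10 on the arrays titled Cd. The leaf groups did not overlap, and the difference was 1.97 (5.59 ± 0.28 and 3.62 ± 0.46), or 3.92-fold. The lowest leaf value was that of leaf Cd 3, and without that array the leaf difference was -1.71.

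CIP1 was read by a brighter and a dimmer probe set. The brighter one (Les.3376.1.A1_at) read 10.62, 10.66 and 10.58 on root control arrays 1 to 3 and 8.81, 8.75 and 9.02 on root Cd arrays 1 to 3. The distance between these groups (10.62 ± 0.04 and 8.86 ± 0.14) was 1.76, or 3.39-fold. In leaf it read 10.09, 10.16 and 9.98 on the controls and 8.87, 8.82 and 9.08 on the arrays titled Cd, a difference of 1.15 or 2.23-fold (10.07 ± 0.09 and 8.92 ± 0.14). With Cd, the root and leaf arrays lay together between 8.75 and 9.08 as deposited, while all root controls stood above all leaf controls.

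The dimmer CIP1 probe set (Les.3376.2.S1_at) reads the same gene with other probes on the same arrays, so it is no independent replicate. In root it stood at 7.59, 7.76 and 7.49 without Cd and at 5.57, 5.79 and 5.42 with Cd, which is 2.02 lower or 4.06-fold. In leaf it stood at 6.99, 6.70 and 6.58 without Cd and at 5.39, 5.53 and 5.60 on the arrays titled Cd, which is 1.25 lower or 2.38-fold. Both CIP1 probe sets showed groups that did not overlap in either organ, and in both the difference was larger in root.

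The choice of the genes fixed this pattern, so the following shares are given as its setting and nothing is read from them. All 3 Cd arrays lay below all 3 controls in 13.9% of the 10038 probe sets in root, in 7.86% in leaf and in 2.63% in both, and above them in 13.5% in root and 13.8% in leaf. A mean difference of 2-fold or more downward in both organs, which all 4 probe sets had, occurred in 78 probe sets (0.777%). Ordered from the lowest Cd difference of all 10038 probe sets, HY5 ranked 305 in root and 126 in leaf, and the brighter CIP1 probe set ranked 68 and 276. CO1 ranked 55 in leaf, and its root values with Cd were too near background for a rank. Of HY5 and CIP1, CIP1 had the larger difference in root and HY5 in leaf.

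**Figure D2:**
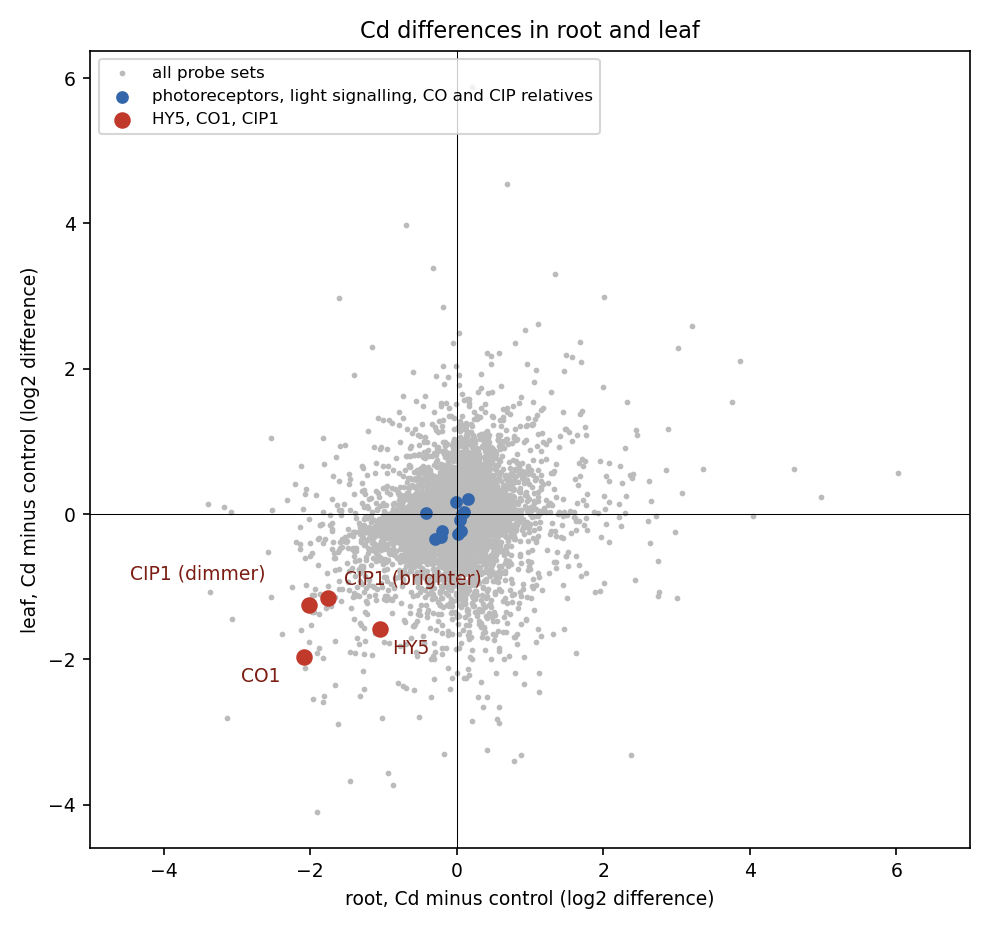
Cd minus control as a log2 difference in root (horizontal) and in leaf (vertical) for all 10038 probe sets (grey), for photoreceptors, light signalling genes and relatives by symbol (blue), and for HY5, CO1 and CIP1 (red). The red points lie in the lower left, between -1.05 and -2.09 in root and between -1.15 and -1.97 in leaf, and the blue points lie near 0 on both axes.

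Whether the responses differed in size between the organs was tested as the root difference less the leaf difference, with limma and Benjamini-Hochberg adjustment over all probe sets. The choice required both differences to be negative, so opposite responses could not occur among these genes. None of the 4 probe sets passed, while 0.757% of all probe sets did (76 at an adjusted p under 0.05, and 1532 at an unadjusted p under 0.05). For HY5 this value was 0.54 (95% interval -0.15 to 1.23, adjusted p = 0.441). For CO1 it was -0.12 (interval -1.07 to 0.84, adjusted p = 0.924), an interval that leaves room for about 1 log2 unit either way, and root values at background limit the CO1 response there. CIP1 came nearest: the difference was -0.61 for the brighter probe set (interval -0.98 to -0.24, unadjusted p = 0.00417, adjusted p = 0.124) and -0.77 for the dimmer one (interval -1.23 to -0.31, unadjusted p = 0.00361, adjusted p = 0.115). With array weights, where root control 1 and root Cd 1 count most, CIP1 passed in both probe sets (-0.58, adjusted p = 0.0227, and -0.77, adjusted p = 0.0225). These values do not show that the organs responded alike.

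The level in root against leaf, averaged over control and Cd, is a comparison that the choice of genes did not use. After the array medians were taken off, 29.7% of all probe sets were called higher in root and 28.7% lower (58.3% in all), so a call is common here. As deposited, 70.2% were called higher and 12.8% lower (83.0% in all). HY5 was higher in root by 2.54 (5.80-fold, 95% interval 2.19 to 2.88, adjusted p = 2.11e-07), and by 3.14 as deposited. All 6 root arrays were above all 6 leaf arrays, so that HY5 in roots with Cd (8.48 to 8.87) remained above HY5 in leaves without Cd (6.66 to 7.07). CO1 was lower in root by 1.30 (-1.30, 2.46-fold, interval -1.77 to -0.82, adjusted p = 0.000372), and the difference was -0.69 as deposited (adjusted p = 0.0116). Both CO1 values include root Cd, where CO1 exceeded background only on root Cd 3, so their size is uncertain. CIP1 had no direction that held under both scalings: its brighter probe set differed by -0.36 after the medians were taken off (adjusted p = 0.00363) and by 0.24 as deposited (adjusted p = 0.0194), and its dimmer one by -0.13 (adjusted p = 0.313) and 0.47 (adjusted p = 0.00145).

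The order of the 4 groups differed between the genes. That Cd stood below control within each organ follows from the choice of the genes and is not a result of the order. With array medians taken off, HY5 descended from root control (2.28) through root Cd (1.22) and leaf control (0.00) to leaf Cd (-1.57). Its arrays overlapped at no step, and the step from root Cd to leaf control is the one that the choice did not use. CO1 was highest in leaf control (-1.29), followed by root control (-2.52), leaf Cd (-3.24) and root Cd (-4.61), and root control and leaf Cd were the neighbours that overlapped. The CO1 level in root Cd lay at background, so the size of its last step is uncertain. For the brighter CIP1 probe set, leaf control (3.19) and root control (3.14) did not differ beyond their spread, and leaf Cd (2.06) stood above root Cd (1.38). Without Cd, then, the brighter CIP1 probe set was at a like height above the median in both organs, while HY5 and CO1 were ordered oppositely. The dimmer CIP1 probe set lay near the median in root control (0.14) and leaf control (-0.13). As deposited, the CO1 controls of the 2 organs overlapped (4.46 to 5.59 in root, 5.41 to 5.91 in leaf).

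Across the 12 arrays, with each organ's mean removed, the members correlated at 0.81 (HY5 and CO1), 0.88 (HY5 and the brighter CIP1 probe set) and 0.92 (CO1 and the brighter CIP1 probe set); all share the Cd difference by which they were chosen. With each group's mean removed, which takes the Cd difference out, the same pairs gave -0.62, 0.43 and -0.19, and the CIP1 probe sets gave -0.01 with each other. These points share arrays and are descriptions over 12 arrays. The root controls show the first of these values: root control 2 had the highest HY5 (10.01) and the lowest CO1 (4.46), and root control 3 had the lowest HY5 (9.52) and the highest CO1 (5.59).

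The mean level of the green tissue genes was lower on all root Cd arrays than on the root controls. Their mean log2 level was 11.01, 10.50 and 11.91 on root control arrays 1 to 3 and 9.39, 9.97 and 10.23 on root Cd arrays 1 to 3, against 12.03 to 12.19 in leaf controls and 11.53 to 11.91 in leaf Cd. All 8 were lower on average in root with Cd, with a median difference of -0.98. Of these, only CAB4 passed the test in root, where 1.96% of all probe sets were called lower. That call was lost under 10 of up to 20 alternatives (other scalings or fits, or 1 array left out). In leaf 0 of the 8 passed, with a median difference of -0.20. Among the 3 root controls CO1 was highest and HY5 lowest on the array with the most green tissue signal. In root Cd, CO1 was too near background to be ordered, and HY5 was highest (8.87) on root Cd 3, the array with the most green tissue signal there. Of the 7 root markers, 4 were called higher in root with Cd (ext1, ST1, FER and NRAMP1), where 1.07% of all probe sets were called higher. The other 3 did not pass, and 1 of them (FRO1, -0.39) was lower on average. The summed log2 level of the 7 was 51.3 to 58.4 in root controls and 60.8 to 62.7 in root Cd. The part of green tissue or root marker signal in the root results was not tested. For RNA integrity, the gapdh control read 0.25 to 0.29 higher (log2) at its 3′ than at its 5′ probe set in leaf controls and 0.37 to 0.57 higher in leaf Cd, while the root groups overlapped (0.32 to 0.61 without Cd and 0.27 to 0.43 with Cd). The leaf groups overlapped for actin (-0.34 to -0.20 without Cd and -0.24 to -0.06 with Cd) and for ubiquitin (-0.58 to -0.33 and -0.41 to -0.30). The part of this in the leaf results was not tested.

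**Figure D3:**
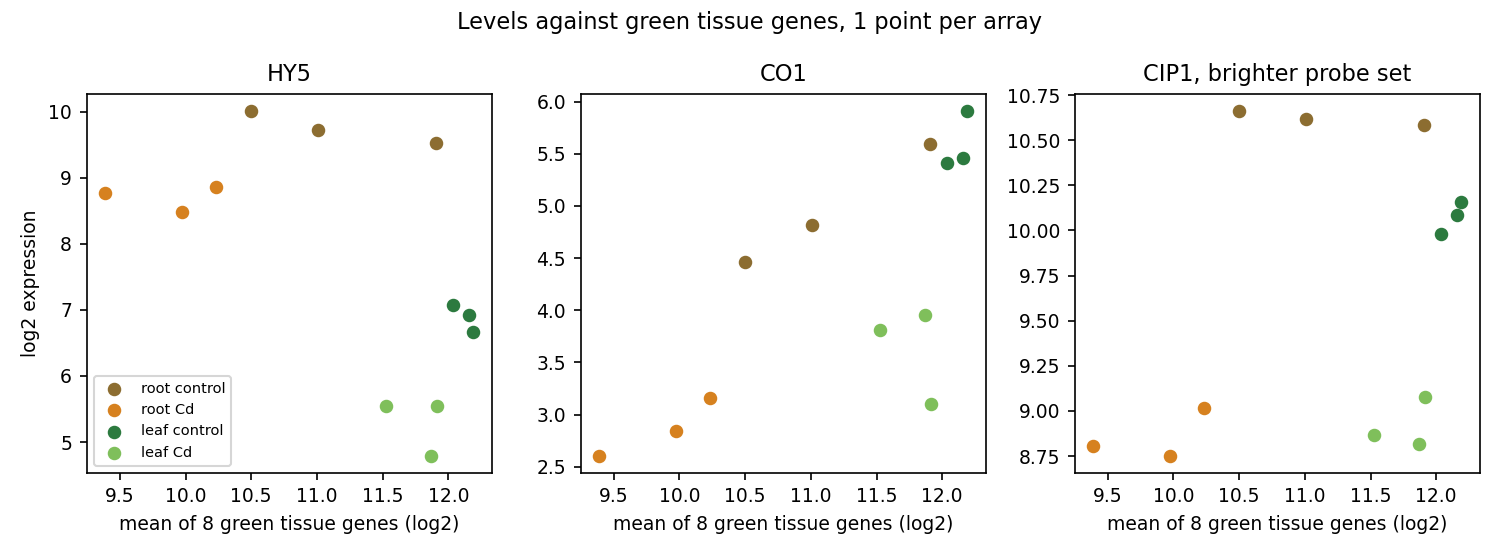
Log2 expression of HY5, CO1 and the brighter CIP1 probe set (vertical) against the mean log2 level of the 8 green tissue genes (horizontal), 1 point per array, coloured by group. Among the 3 root controls CO1 runs from 4.46 at 10.50 to 5.59 at 11.91, the root Cd values of CO1 lie near background, and CIP1 in root controls stays between 10.58 and 10.66 while those genes range from 10.50 to 11.91.

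The genes that share a symbol series with CO1 and CIP1 did not pass the test in either organ. Of 15 symbols listed, 4 genes were measured, and the 2 besides the members were FKBP12 and CIP4. FKBP12, an immunophilin listed with the synonym CIP3, had a Cd difference of 0.15 in root (95% interval -0.09 to 0.39, adjusted p = 0.586) and 0.20 in leaf (-0.04 to 0.44, adjusted p = 0.358). CIP4 had 0.07 in root (-0.26 to 0.40, adjusted p = 0.892) and 0.00 in leaf (-0.33 to 0.32, adjusted p = 0.999). The intervals exclude a change as large as that of CIP1 in the same organ. FRK2, the gene beside CIP1, had 0.07 in root (adjusted p = 0.904) and 0.56 in leaf (adjusted p = 0.095).

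Photoreceptors were measured for 4 of 16 listed symbols, and 0 passed in root or in leaf, where 3.03% and 3.78% of all probe sets passed. Their median Cd difference was -0.26 in root and -0.15 in leaf, against 0.02 over all probe sets in each organ. Without leaf Cd 3 the leaf median turned to 0.09, with PHYA at 0.03 and CRY1A at -0.03. PHYA, the phytochrome of dim and far-red light, went from 10.54 ± 0.02 to 10.24 ± 0.27 in root (adjusted p = 0.679) and from 7.69 ± 0.09 to 7.34 ± 0.66 in leaf (adjusted p = 0.532). Like HY5 it was far higher in root than in leaf, by 2.27 after the medians were taken off. The blue-light receptor CRY1A had -0.22 in root (adjusted p = 0.691) and -0.31 in leaf (adjusted p = 0.446). Cry1b had -0.42 (adjusted p = 0.253) and 0.02 (adjusted p = 0.973), and CRY2 had 0.10 (adjusted p = 0.906) and 0.03 (adjusted p = 0.964). With array weights CRY1A (adjusted p = 0.0147) and Cry1b (adjusted p = 0.0407) passed in root, but that setting called 37.3% of all probe sets there.

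The regulators around HY5 did not pass either. Of 27 symbols listed, 6 were measured, and the 5 besides HY5 had a median Cd difference of 0.02 in root and -0.23 in leaf. The leaf median turned to 0.05 without leaf Cd 3, where COP1 (0.11), DET1 (0.03) and CUL4 (0.27) were above 0. COP1 read 9.31 ± 0.14 without and 9.11 ± 0.27 with Cd in root (-0.21, interval -0.78 to 0.37, adjusted p = 0.786) and 8.08 ± 0.14 and 7.85 ± 0.61 in leaf (-0.23, interval -0.81 to 0.34, adjusted p = 0.690). DET1 had 0.06 in root (adjusted p = 0.942) and -0.23 in leaf (adjusted p = 0.609), and its partner DDB1 had 0.02 (adjusted p = 0.984) and -0.27 (adjusted p = 0.388). The cullin CUL4 had 0.04 (adjusted p = 0.969) and -0.08 (adjusted p = 0.899). The COP9 signalosome subunit csn5 had -0.02 (adjusted p = 0.981) and 0.17 (adjusted p = 0.507). In leaf, the lower interval bounds of these 5 genes lay between -0.81 and -0.10, short of the HY5 difference of -1.59.

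**Figure D4:**
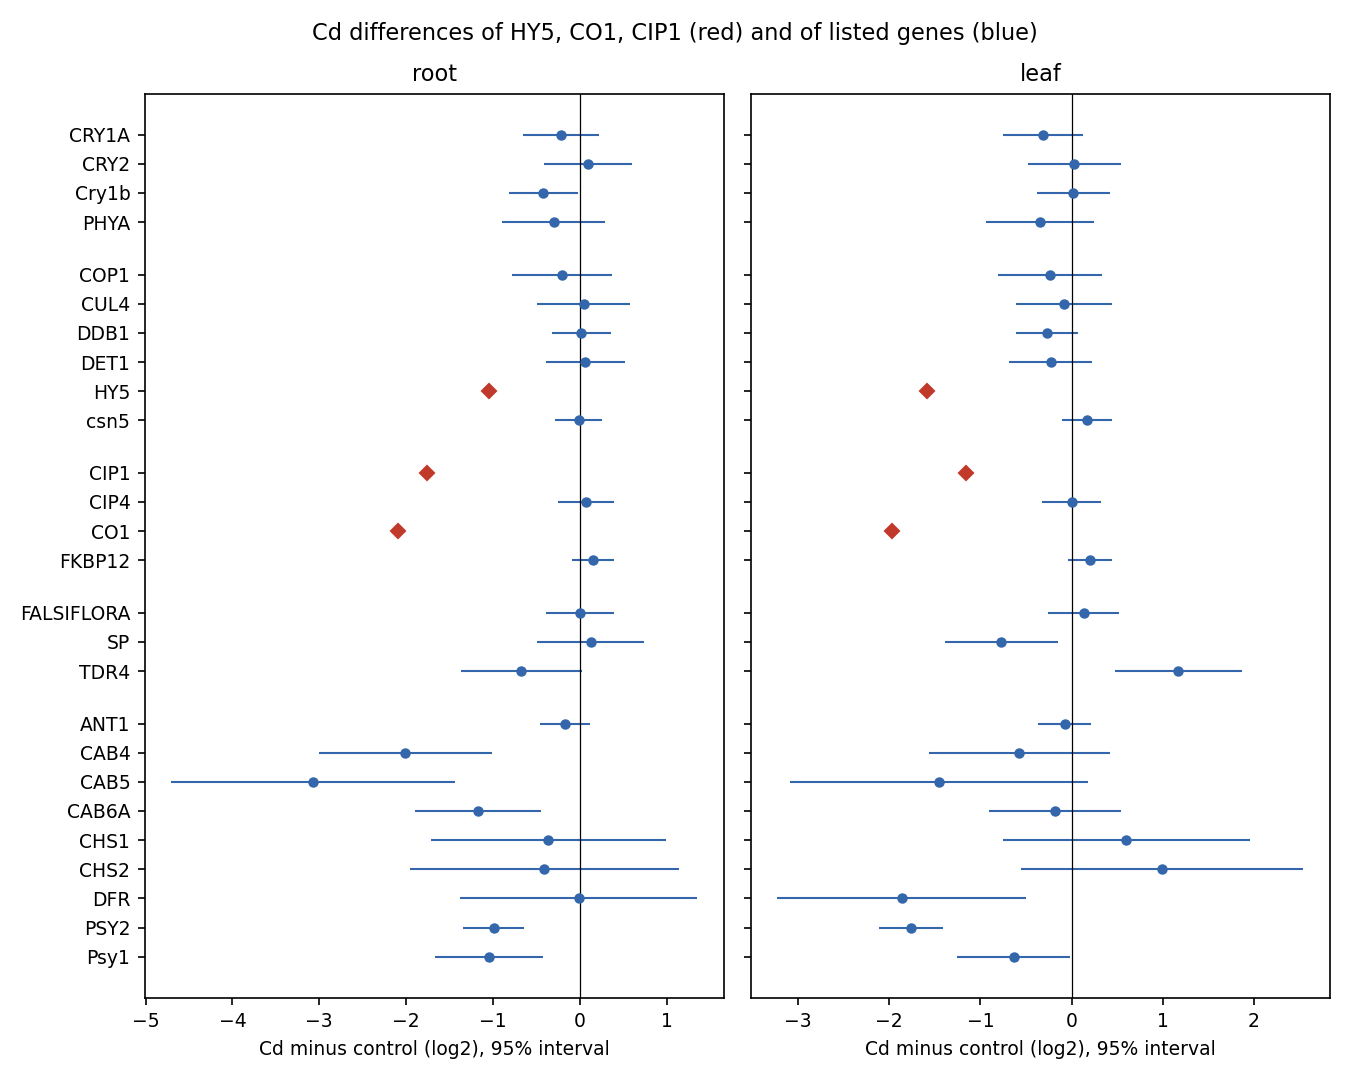
Cd minus control (log2 difference) in root and leaf for HY5, CO1 and CIP1 (red diamonds, no interval, since the genes were chosen on these values) and for the other listed genes (blue points with 95% intervals from the fit). From top to bottom the blocks are photoreceptors, light signalling regulators, relatives by symbol, flowering regulators, and HY5 targets with light-responsive genes. In the first 3 blocks the blue points lie between -0.42 and 0.20, and in the last block PSY2 is lower in both organs.

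Of the genes known to respond to light or to HY5, 9 of 35 listed symbols were measured, with a median Cd difference of -0.99 in root, where 3 of the 9 were at background. CAB4, CAB5 and CAB6A are also among the green tissue genes above, so the 2 lists are not separate results. Of these, PSY2 and CAB4 fell in root and PSY2 fell in leaf, against 1.96% of all probe sets called lower in root (1.07% higher) and 1.54% in leaf (2.23% higher). PSY2, a phytoene synthase at the entry of carotenoid synthesis, read 7.93 ± 0.11 without and 6.94 ± 0.22 with Cd in root (-0.99, adjusted p = 0.0103) and 8.01 ± 0.23 and 6.24 ± 0.15 in leaf (-1.76, adjusted p = 0.000385). CAB4, a chlorophyll-binding protein of the light-harvesting antenna, went from 10.85 ± 0.996 to 8.84 ± 0.71 in root (adjusted p = 0.0401), a call that ended under 10 alternatives, among them leaving out root control 1 (adjusted p = 0.107), and had -0.57 in leaf (adjusted p = 0.543). CAB5 (-3.07, adjusted p = 0.0530), CAB6A (-1.17, adjusted p = 0.0843) and the other phytoene synthase Psy1 (-1.05, adjusted p = 0.0757) did not pass in root. The flavonoid genes CHS1 and DFR and their regulator ANT1 were at background on all root arrays, and another chalcone synthase, CHS2, had -0.41 in root (adjusted p = 0.861). In leaf the median of the 9 was -0.57, and -0.37 without leaf Cd 3. There CHS2 stood at 0.996 (adjusted p = 0.489), CHS1 at 0.60 (adjusted p = 0.660) and DFR at -1.86 (adjusted p = 0.130). Without leaf Cd 3 these were 0.49, -0.21 and -2.15.

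Flowering regulators were represented by 3 of 18 symbols, and 0 passed. SP, the tomato self-pruning gene, was at background in root and had -0.77 in leaf (adjusted p = 0.163), where it was above background on 3 control arrays and 1 Cd array. FALSIFLORA, the LEAFY gene of tomato, was at background on all arrays. TDR4, a MADS-box factor of ripening fruit, had -0.67 in root (adjusted p = 0.305) and 1.17 in leaf (adjusted p = 0.0683), and in leaf it passed when arrays were paired by number (adjusted p = 0.0144).

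Of all probe sets, 27 (0.269%) were called lower in both organs, which is 13.7% of the 197 called lower in root and 17.4% of the 155 called lower in leaf. Outside HY5, CO1 and CIP1, for which the test is not used, 4 named genes were among them. These were PSY2, LCY1 (a lycopene cyclase of carotenoid synthesis), 3OH-2 (a gibberellin 3-oxidase) and SODCP.2 (a superoxide dismutase of the chloroplast, with copper and zinc). LCY1 differed by -1.48 in root and -0.78 in leaf, and 3OH-2 by -1.67 and -1.74. SODCP.2 differed by -0.87 and -3.73, and its root call (adjusted p = 0.0447) ended under 11 of up to 20 alternatives. The leaf call of LCY1 (adjusted p = 0.0257) ended under 5. For 3OH-2 the root call ended without root control 3 (adjusted p = 0.0683) or root Cd 2 (adjusted p = 0.0621), and the leaf call without leaf control 2 (adjusted p = 0.0575) or with leaf fitted alone (adjusted p = 0.0891).

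The named genes whose values were most like those of each member were ranked by Pearson correlation over the 12 arrays with the organ mean removed, which is a description that includes the Cd difference itself. For HY5 they were the cytosolic superoxide dismutase SODCC.1 (r = 0.97), t19-8 (0.94), PSY2 (0.94), the carotene hydroxylase CrtR-b1 (0.89) and SODCP.2 (0.88). For CO1 they were the lycopene cyclase CRTL-E-1 (0.91), MFP1 (0.91), PSY2 (0.90), the lipoxygenase LOX1.1 (0.89) and LCY1 (0.89). For the brighter CIP1 probe set they were LCY1 (0.97), LOC544309 (0.94), t19-8 (0.92), 3OH-2 (0.89) and CrtR-b1 (0.89), and the dimmer one shared LCY1, t19-8, LOC544309 and 3OH-2, with the ammonium transporter AMT1-2 (0.87) after them.

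Likeness in pattern did not mean likeness in size. SODCC.1 differed by -0.53 in root and -0.63 in leaf, and t19-8 by -0.47 and -0.56, so that both ran with HY5 at a smaller amplitude. LOC544309 differed by -0.49 and -0.26. LCY1 was near CIP1 in size too, at 9.18 ± 0.13 and 7.70 ± 0.17 in root and 9.58 ± 0.14 and 8.79 ± 0.29 in leaf, with the larger difference in root as for CIP1. PSY2 differed by -0.99 and -1.76, with the larger difference in leaf, as for HY5. In the main limma fit the difference between the organs did not pass for PSY2 (adjusted p = 0.146) or LCY1 (adjusted p = 0.201). It did not pass for HY5 or CIP1 either, so no organ preference is read from these sizes. LOX1.1 differed by -1.88 in root (adjusted p = 0.0401, a call that ended under 7 alternatives) and by -1.37 in leaf (adjusted p = 0.103). It was named for a likeness to CO1 that includes the Cd difference, so these p-values are no independent support. CO1 differed by -2.09 in root, a size limited by background, and by -1.97 in leaf.

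**Figure D5:**
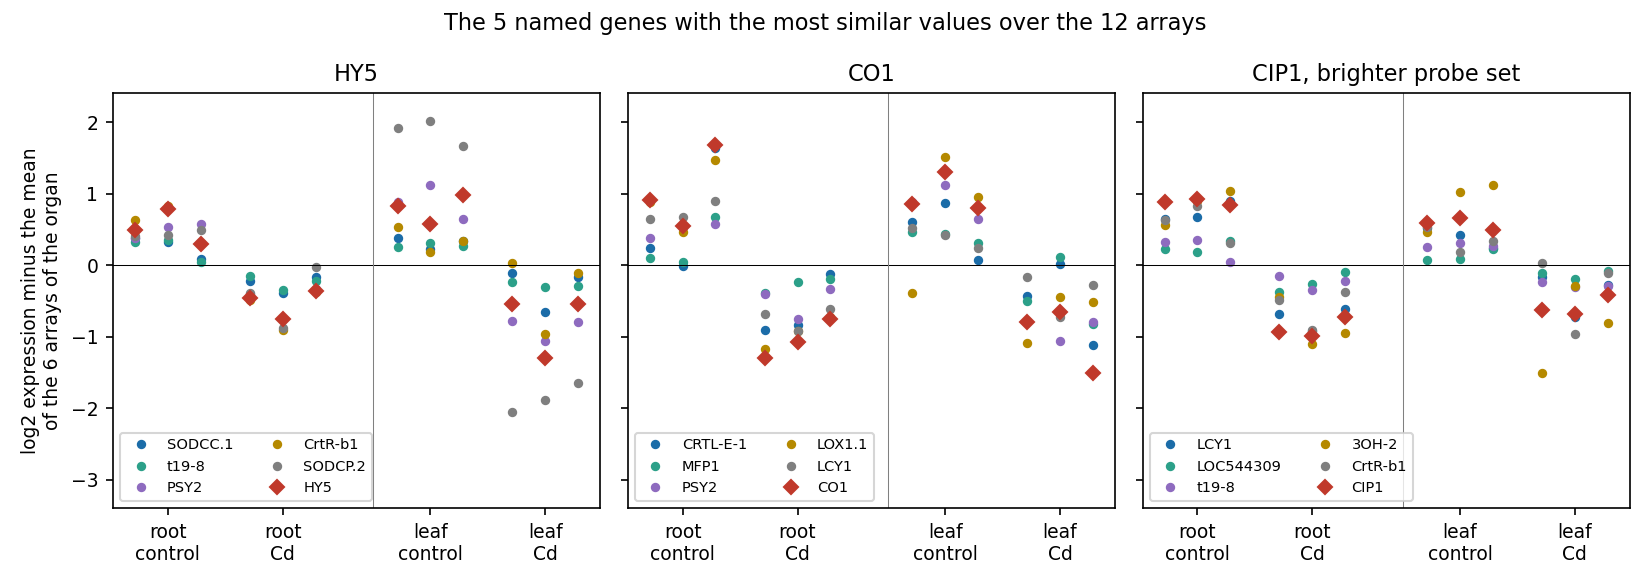
Log2 expression less the mean of the 6 arrays of the organ (vertical) on the 12 arrays, by group, for HY5, CO1 and the brighter CIP1 probe set (red diamonds) and the 5 named genes most like each (coloured points). LCY1 runs close to CIP1 (r = 0.97), while SODCC.1 follows HY5 (r = 0.97) at a smaller amplitude and SODCP.2 exceeds it in leaf.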

How the data were processed

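Per the submitters' processing notes, MAS5 and RMA were used, with no role or version stated; as deposited, each probe set has a log2 value per array. A genome assembly served only for the order of neighbouring genes, and no probe sequence was used. The 171 control probe sets were left out. Names came from the array's 2007 annotation (909 probe sets with a symbol, 885 matched to the current gene table); where a gene had several probe sets, the one with the highest mean stood for it, except that all member probe sets are given. limma 3.58.1 (R 4.3.3) fitted the 4 group means over the 12 arrays (prior degrees of freedom 2.84, residual 8); p-values are two-sided and adjusted by Benjamini-Hochberg over 10038 probe sets, threshold 0.05. The fit was tested on simulated data. Tables and plots used Python 3.11.15, pandas 2.3.3 and matplotlib 3.10.9. The number of arrays limits the precision. Members and gene lists were chosen with earlier results of these data known. Named are all members, all measured photoreceptors, light signalling regulators and relatives by symbol, the up to 4 genes of each other list with the highest mean, and the 5 named genes most like each member. CHS1, CHS2, DFR, ANT1, ext1, NRAMP1 and the remaining green tissue genes were named after their values were known, and FRK2 for its position. Deviations from group means correlated between same-numbered control and Cd arrays at 0.35, 0.42 and 0.12 in leaf. In root they correlated at 0.00, -0.26 and 0.06. The numbers may therefore pair the leaf arrays, but the main fit paired no arrays, so the leaf p-values leave this out. When limma paired arrays by number, TDR4 (adjusted p = 0.0144), LOX1.1 (0.0413) and CRTL-E-1 (0.0387) passed in leaf. The leaf call of t19-8 was lost in that setting (adjusted p = 0.0695). LOX1.1, CRTL-E-1 and t19-8 were named for a likeness that includes the Cd difference, so their calls are no independent support.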

Additional observations from a re-analysis of the deposited data

Results flagged for a closer look

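SODCP.2, named for its likeness to HY5, differed between the organs in its Cd response. That likeness included the Cd difference, so the test is not independent of the naming. The Cd difference was -0.87 in root and -3.73 in leaf, and limma's test of the difference between them gave 2.86 (adjusted p = 0.00159). Over the alternatives run for it, the value lay between 2.65 and 3.08 and the adjusted p between 0.000119 and 0.0310.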

How the results depend on the processing

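The direction of the Cd differences of HY5, CO1 and CIP1 was fixed by their choice, so only their sizes are given. Leaving out each array in turn gave -1.16 to -0.92 in root and -1.71 to -1.34 in leaf for HY5, -2.34 to -1.77 and -2.14 to -1.71 for CO1, and -1.84 to -1.71 and -1.23 to -1.10 for the brighter CIP1 probe set. Raising CO1 values to background, added after seeing the data, gave -1.61 in root. As deposited, CIP1 turned to 0.24 and 0.47 in root against leaf, and calls went from 2879 lower and 2978 higher to 1282 and 7051. Array weights moved the root calls from 197 lower and 107 higher to 1872 and 1873, the leaf calls from 155 lower to 264, the calls on the difference between organs from 53 lower and 23 higher to 376 and 329, and the listed light and flowering genes called lower in root from 2 to 8. They also brought CIP1 past the threshold for that difference (-0.58 and -0.77). With the replicate block, which pairs arrays by number, 46 probe sets were called higher for the difference between organs and 1 listed gene (TDR4) was called higher in leaf. With each organ fitted alone, 94 probe sets were lower in root, 28 lower and 37 higher in leaf, and 1 listed gene was lower in root. Without 1 array in turn, root calls were 46 to 298 lower and 39 to 156 higher, leaf calls 46 to 271 lower and 81 to 318 higher, calls on the difference 20 to 72 lower and 6 to 88 higher, and listed genes 1 to 4 lower in root, 1 to 3 lower in leaf and 0 to 1 higher in leaf. The fewest root calls came without root Cd 1, the fewest leaf calls without leaf control 2, and the most leaf calls without leaf Cd 3. The CO1 difference between organs lay between -0.38 and 0.20, turning above 0 without root control 3 (0.20), root Cd 1 (0.01) or leaf Cd 2 (0.05). Up to 20 alternatives were run for the 34 named genes that are not members. They included other scaling, quantile normalisation within organ, array weights, an intensity trend and dim probe sets left out. They also included the replicate block, each organ fitted alone and each array left out in turn. Of the 68 root and leaf results of these genes, 41 never changed side of the threshold. By recomputed value, 1209 kept their side, 65 lost a call and 32 gained one. Changes of sign among genes not called were not counted. The causes were not tested. Signal at background limits CO1 in root with Cd.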

Other observations

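The array carries 3 control probe sets named for PhyB2, a phytochrome, which stood outside the tests. Those at the 5′ end and the middle were below background on all 12 arrays. The one at the 3′ end read 5.43 to 5.94 in root controls, 5.32 to 5.81 in root Cd, 4.88 to 5.04 in leaf controls and 3.73 to 4.63 in leaf Cd, so that its groups overlapped in root and did not overlap in leaf. In leaf, 7.86% of the tested probe sets had all Cd arrays below all controls. The lowest PhyB2 value was on leaf Cd 3, the array that stood apart, and leaf Cd 1 and leaf Cd 2 read 4.57 and 4.63. A Cd effect on PhyB2 was not tested.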
